A study of Solanum lycopersicum with 6 samples.

Results

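Abscisic acid (ABA) and drought marker genes were followed in leaves of the tomato *kyp* mutant and of its wild type. The set was chosen by identifier and holds 8 genes, which are *NCED1*, the dehydrin gene *TAS14*, the late embryogenesis abundant (LEA) gene *LE25*, an *RD29*-like gene and *ASR1* to *ASR4* of the cluster on chromosome 4. Of these, 7 have a row among the 35821 genes of the count table. *ASR4* (Solyc04g071620) was not analysed here. The tested plants were *kyp*, a mutant of cultivar M82 that is impaired in the deposition of H3K9me2, and the wild type (WT) was M82 itself, with 3 biological replicates of each genotype. Both genotypes were grown at 24 °C with 16 h of light per day under conditions labelled normal, with no drought or ABA treatment named, and RNA was taken from the fourth leaf at 4 weeks. The *kyp* plants came from a donated line, and *KYP* itself was not analysed here. The comparison asked whether ABA and drought marker transcripts differed between *kyp* and WT leaves under these conditions.

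ABA is made from carotenoids. An epoxycarotenoid dioxygenase of the NCED family cleaves the carotenoid precursor in the plastid, which is held to be the limiting step under drought, and the tomato mutant *notabilis*, which lacks NCED1 function, wilts readily. ABA is bound by soluble receptors that inhibit PP2C phosphatases, which frees SnRK2 kinases to activate bZIP transcription factors and through them the dehydration genes. Dehydrins, LEA proteins and ASR (ABA, stress, ripening) proteins are small and very hydrophilic, and they accumulate in drying tissues and in seeds. The *RD29* genes of Arabidopsis are widely used reporters of dehydration and cold.

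Reads assigned to genes totalled 7283885 to 10091231 per library in *kyp* and 8925379 to 11012421 per library in WT. Levels are given as CPM, counts relative to a library total scaled by its TMM factor, which compare 1 gene between libraries but not genes of unlike length. A floor of 3 counts, the smallest signal taken as present in a library, equalled 0.297 to 0.422 CPM in *kyp* and 0.264 to 0.335 CPM in WT, and it covers counting error only. The plastid gene *rbcL*, for the large Rubisco subunit of photosynthetic tissue, had 69.9, 105 and 117 CPM in *kyp* and 116, 145 and 258 CPM in WT. These levels alone do not settle the tissue, which rests on the labels. Of the 3 plastid genes listed as leaf markers, *psbA*, for a core protein of photosystem II, was lower in *kyp* with a log2 fold change of -1.12 and an edgeR adjusted p of 0.0191, and *rbcL* and *psaA* were not called (0.0734 and 0.276). The 2 nuclear identifiers on that list with a row, Solyc03g034220.3 and Solyc02g063150.3, were not called either (0.798 and 0.122). They averaged 2796 and 2308 CPM in *kyp*, and 2912 and 1847 CPM in WT. The plastid share of the counts was lower in *kyp*, at 0.552% to 0.621%, than in WT, at 0.652% to 0.881%. With organelle genes left out of the edgeR fit, the log2 fold changes were 0.86 for *NCED1* and 0.71 for *ASR1*. Any other part of the plastid share in the differences below was not tested. In whole leaves, more RNA of a gene per cell and more cells of a type that expresses it cannot be told apart.

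Among the 7 genes with a row, 4 passed edgeR's filter on low counts and entered the test of *kyp* against WT over 20154 genes. *NCED1* and *ASR1* were higher in *kyp*, by 1.82-fold and 1.63-fold, while *TAS14* and *ASR2* did not pass the threshold. Over all tested genes, 14.8% were called higher in *kyp* and 24.9% were called in either direction at a Benjamini-Hochberg adjusted p under 0.05 by edgeR's quasi-likelihood test. The median log2 fold change was 0.59 over the 4 genes and -0.01 over all tested genes.

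*NCED1* (Solyc07g056570.1), which encodes the dioxygenase that commits carotenoid to ABA, had 1397, 1254 and 1493 counts in the *kyp* libraries and 736, 889 and 948 counts in the WT libraries. Scaled for depth, these were 196, 138 and 148 CPM in *kyp*, against 80.5, 78.2 and 106 CPM in WT. All 3 *kyp* libraries lay above all 3 WT libraries. *NCED1* averaged 161 ± 31.4 CPM in *kyp* and 88.2 ± 15.3 CPM in WT (SD, n = 3 each). The log2 fold change was 0.86 with a standard error of 0.16, and the adjusted p by edgeR's quasi-likelihood test was 0.00575. Its 95% interval, as a fold, ran from 1.40 to 2.36. Of the tested genes, 15.4% had a larger log2 fold change in size, in either direction.

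**Figure D1:**
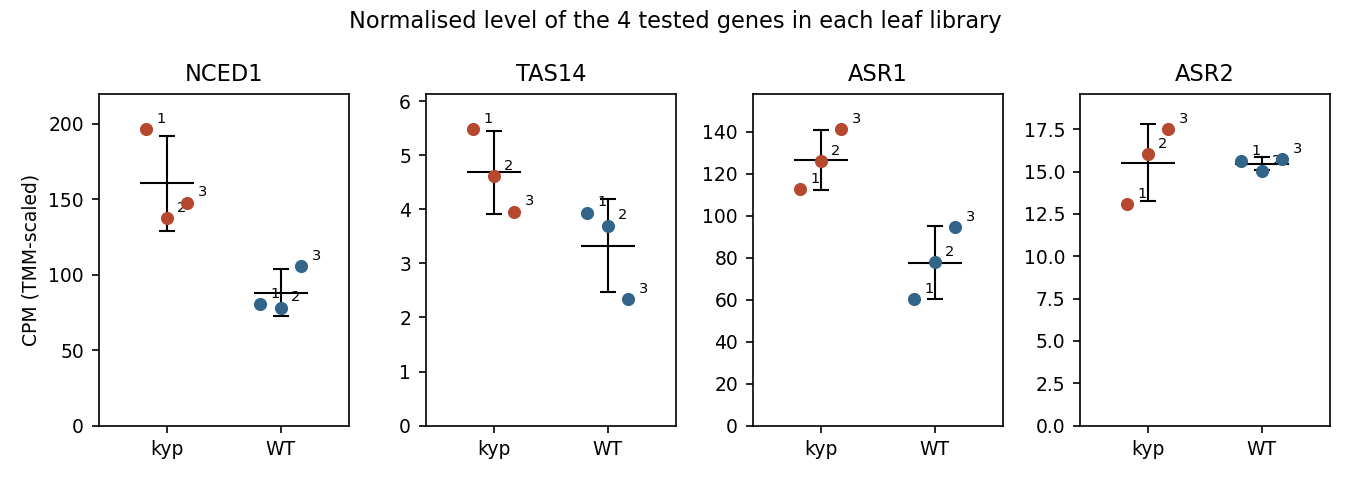
TMM-scaled CPM (vertical axis, from 0) of *NCED1*, *TAS14*, *ASR1* and *ASR2* in each of 3 *kyp* and 3 WT leaf libraries. Points are libraries numbered by replicate, and bars are means with SD. *NCED1*, *TAS14* and *ASR1* show no overlap between genotypes, whereas for *ASR2* the WT libraries lie between the *kyp* libraries.

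*TAS14* (Solyc02g084850.3), a dehydrin gene known in tomato to respond to salt, drought and ABA, was weakly represented in these leaves. It had 39, 42 and 40 counts in *kyp* and 36, 42 and 21 counts in WT. After scaling these were 5.48, 4.61 and 3.96 CPM in *kyp*, against 3.94, 3.70 and 2.34 CPM in WT. The groups did not overlap, but the lowest *kyp* library and the highest WT library differed by less than the spread within either genotype. *TAS14* averaged 4.68 ± 0.765 CPM in *kyp* and 3.32 ± 0.859 CPM in WT (SD, n = 3 each). The fold was 1.39 with a 95% interval from 0.926 to 2.09 and an edgeR adjusted p of 0.213. At this depth neither an equal level nor a doubling of *TAS14* could be set aside.

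Absence of overlap is common in this table. It was seen for 3 of the 4 tested genes, and for 42.4% of all tested genes. With 3 libraries per genotype the smallest p of the exact two-sided permutation test is 0.1, and *NCED1*, *TAS14* and *ASR1* each reached it.

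The ASR genes encode small proteins first described in tomato as induced by ABA, stress and ripening. In the RefSeq gene table for assembly SLM_r2.1, *ASR2*, *ASR3*, *ASR1* and *ASR4* follow each other on chromosome 4 in this order, with 1 further gene between *ASR3* and *ASR1*. The count table lists *ASR2*, *ASR3* and *ASR1* in the same order, with Solyc04g071600.3 between *ASR3* and *ASR1*.

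*ASR1* (Solyc04g071610.4) had 802, 1148 and 1428 counts in *kyp* and 550, 886 and 849 counts in WT. The levels were 113, 126 and 141 CPM in *kyp*, against 60.1, 78.0 and 94.7 CPM in WT. Every *kyp* library was above every WT library, and *ASR1* averaged 127 ± 14.3 CPM in *kyp* and 77.6 ± 17.3 CPM in WT (SD, n = 3 each). The log2 fold change was 0.71 with a standard error of 0.16 and an edgeR adjusted p of 0.0137. As a fold, the 95% interval reached from 1.26 to 2.11. The call of *ASR1* was lost without *kyp* replicate 3, with a log2 fold change of 0.62 and an edgeR adjusted p of 0.0530, and without WT replicate 2, with 0.71 and 0.0501. *NCED1* stayed past the threshold when each replicate was left out in turn, with edgeR adjusted p from 0.00339 to 0.0291.

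*ASR2* (Solyc04g071580.3) had 93, 146 and 177 counts in *kyp* and 143, 171 and 141 counts in WT, or 13.1, 16.0 and 17.5 CPM in *kyp* and 15.6, 15.05 and 15.7 CPM in WT. The WT libraries fell inside the range of the *kyp* libraries. Its mean was 15.5 ± 2.26 CPM in *kyp* and 15.5 ± 0.369 CPM in WT (SD, n = 3 each). The fold of 1.01 had a 95% interval from 0.813 to 1.25, with an edgeR adjusted p of 0.956, so a change of *ASR2* as large as the 1.63-fold estimated for *ASR1* lay outside its interval.

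**Figure D2:**
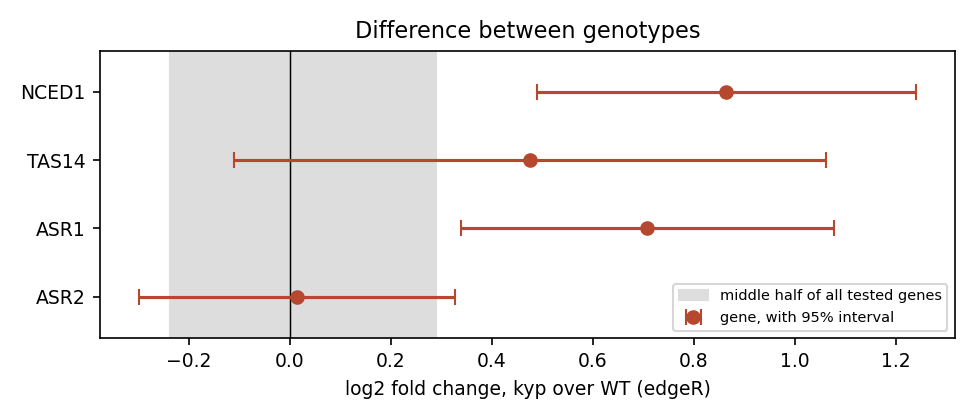
Log2 fold change of *kyp* over WT (horizontal axis, edgeR) for *NCED1*, *TAS14*, *ASR1* and *ASR2*, as points with 95% intervals. The grey band spans the lower and upper quartiles of all 20154 tested genes, at -0.24 and 0.29. The intervals of *NCED1* and *ASR1* lie above the band and those of *TAS14* and *ASR2* cross 0.

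The difference between *ASR1* and *ASR2* did not depend on how libraries were scaled, since it can be read from both genes within each library. *ASR1* had 8.62, 7.86 and 8.07 counts for each count of *ASR2* in the *kyp* libraries, and 3.85, 5.18 and 6.02 in the WT libraries. The ratio averaged 8.18 ± 0.394 in *kyp* and 5.02 ± 1.10 in WT (SD, n = 3 each), without overlap. The exact two-sided permutation p was 0.1, the smallest this design allows. *NCED1* had 15.02, 8.59 and 8.44 counts for each count of *ASR2* in *kyp*, against 5.15, 5.20 and 6.72 in WT, with an exact permutation p of 0.1. These ratios were chosen after the levels had been seen, and 4 ratios were computed. With Benjamini-Hochberg adjustment over the 4 ratios, the exact p of both was 0.2. The ratio of *NCED1* to *TAS14* overlapped between genotypes, at 35.8, 29.9 and 37.3 in *kyp* and 20.4, 21.2 and 45.1 in WT, with an exact permutation p of 0.4. That of *TAS14* to *ASR2* overlapped as well, with an exact permutation p of 0.3.

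*ASR3* (Solyc04g071590.3) was near the floor and did not pass the filter. It had 1, 7 and 4 counts in *kyp* and 0, 1 and 2 counts in WT, 12 counts against 3 in total. Its means of 0.435 ± 0.316 CPM in *kyp* and 0.104 ± 0.112 CPM in WT (SD, n = 3 each) overlapped library by library, and the exact permutation p was 0.2. The adjacent Solyc04g071600.3, for which no gene name was used here, had 8, 27 and 7 counts in *kyp* and 9, 8 and 3 counts in WT and did not pass the filter either.

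*LE25* (Solyc10g078770.2), a LEA gene of tomato known from drying leaves and from seeds, had 0 counts in each WT library. In *kyp* it had 1, 14 and 0 counts, so 14 of its 15 counts came from *kyp* replicate 2, where they equalled 1.54 CPM. The genotypes overlapped at 0, and the exact permutation p was 0.4. Tested without the filter, *LE25* had an unadjusted p of 0.0237 and an adjusted p of 0.0895 by edgeR, and *ASR3* had 0.0585 and 0.170. The *RD29*-like gene (Solyc03g025810.4) had 0 counts in all 6 libraries, below the floor of 3 counts in each, which does not show that it was silent.

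**Figure D3:**
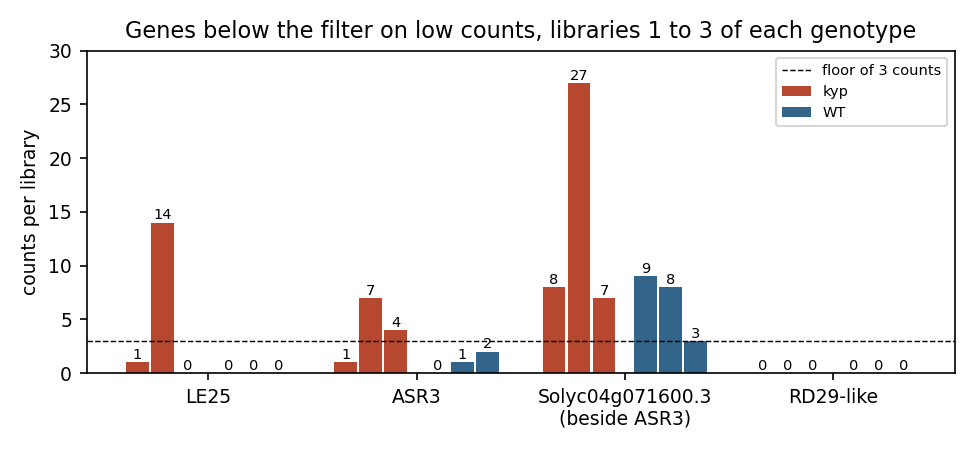
Counts per library (vertical axis, from 0) of the 3 member genes below the filter and of Solyc04g071600.3, listed beside *ASR3*. Each group of bars holds *kyp* replicates 1 to 3 and then WT replicates 1 to 3, and the dashed line is the floor of 3 counts. *LE25*, *ASR3* and Solyc04g071600.3 each have their highest count in *kyp* replicate 2, at 14, 7 and 27.

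*kyp* replicate 2 held the highest count of *LE25*, *ASR3* and Solyc04g071600.3, but not of *NCED1* or *ASR1*. The highest *NCED1* level in *kyp* was in replicate 1 and the highest *ASR1* level in replicate 3. Only 2 genes of the table had at least 10 counts in *kyp* replicate 2 and at most 1 in every other library, and *LE25* was 1 of them. The same count was 0 to 2 genes for each of the other libraries, so replicate 2 did not stand apart in this respect. Over all genes it differed more from the other *kyp* libraries. The chi-square value per degree of freedom was 10.2 against replicate 1 and 12.1 against replicate 3, beside 4.77 between replicates 1 and 3. Pairs of WT libraries had 6.14 to 12.3. Without *kyp* replicate 2 edgeR called 5431 genes, against 3738 without *kyp* replicate 1 and 3559 without *kyp* replicate 3.

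The members also varied differently among replicates. Within a genotype the coefficient of variation was 19.6% in *kyp* and 17.3% in WT for *NCED1*, 11.3% in *kyp* and 22.3% in WT for *ASR1*, 16.3% in *kyp* and 25.8% in WT for *TAS14*, and 14.5% in *kyp* and 2.38% in WT for *ASR2*, beside medians over all tested genes of 11.98% in *kyp* and 11.1% in WT. Over the 6 libraries *NCED1* and *ASR1* had a Pearson r of 0.82 on the log2 CPM scale, and 0.21 once each genotype's mean was taken off. The resemblance of the pair thus lay mainly in the difference between genotypes. *ASR1* and *TAS14* ran opposite to each other within genotypes, with r = -0.91 for the deviations of 6 libraries from their genotype means. *TAS14* was lowest in replicate 3 of either genotype, where *ASR1* was highest. This r was the largest in size among all pairs of the 4 tested members, and the other pairs ran from -0.58 to 0.43. *TAS14* had only 21 to 42 counts per library. These correlations are descriptions over few libraries that share depth and genotype.

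The genes whose log2 CPM ran most like *NCED1* over the 6 libraries were Solyc10g080480.2 (r = 0.998), Solyc12g008700.3 (r = 0.997) and Solyc02g090190.1 (r = 0.996). For *ASR1* they were Solyc10g007680.4 (r = 0.998), Solyc10g007100.3 (r = 0.996) and Solyc03g112630.3 (r = 0.995), and for *TAS14* Solyc09g008260.3, Solyc12g008870.1 and Solyc05g010160.3, with r from 0.993 to 0.994. With 6 libraries such values are frequent, as 315 tested genes had r over 0.95 with *NCED1*, 143 with *ASR1* and 50 with *TAS14*. Of the 9 genes named, Solyc10g080480.2 alone passed the threshold, with a log2 fold change of 0.51 and an edgeR adjusted p of 0.0254.

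Genes listed around the ASR cluster were examined from 10 places before *ASR2* to 10 places after *ASR1*. Of the 21 neighbours that are not members, 11 passed the filter, 2 were called higher in *kyp* and 1 lower, or 27.3% of those tested beside the 24.9% of all genes. Solyc04g071500.4 had 13.1, 6.59 and 10.4 CPM in *kyp* and 6.45, 4.05 and 4.46 CPM in WT, a 2.00-fold difference with an edgeR adjusted p of 0.0337. Solyc04g071540.4 had 17.9, 17.1 and 19.0 CPM in *kyp*, against 12.1, 10.4 and 14.5 CPM in WT, 1.46-fold higher with an edgeR adjusted p of 0.0271. Solyc04g071700.3 was lower, at 20.4, 23.2 and 16.9 CPM in *kyp* and 26.8, 27.4 and 29.9 CPM in WT, with an edgeR adjusted p of 0.0323. The nearest tested neighbours of *ASR1*, which were *ASR2* and Solyc04g071630.3, did not pass the threshold. The calls of all 3 were lost without *kyp* replicate 1, without *kyp* replicate 3 and without WT replicate 2.

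**Figure D4:**
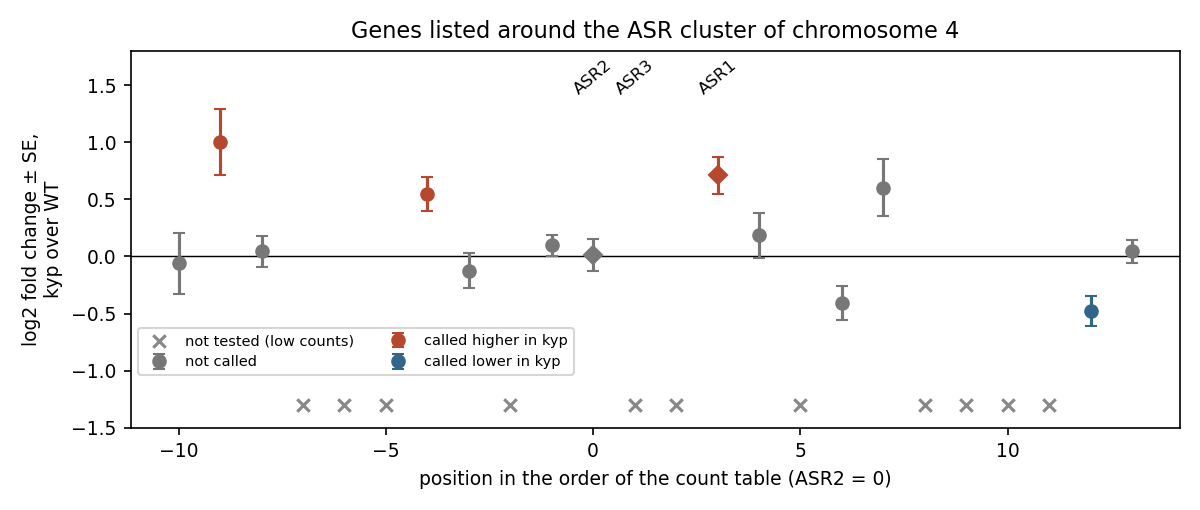
Log2 fold change of *kyp* over WT with its standard error (vertical axis) for the genes listed around the ASR cluster, by place in the count table with *ASR2* at 0 (horizontal axis). Diamonds are members, circles other genes, colours the edgeR call, and crosses genes with too few counts to test. *ASR1*, at 0.71, was called, and its nearest tested neighbours on both sides were not.

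A further 35 identifiers were listed for ABA synthesis, breakdown, perception and signalling. This list was taken from general knowledge of tomato, and neither the count table nor the RefSeq table pairs these identifiers with gene names, so single identifiers are given without a name or role and the counts by step rest on that unchecked list. Of the 35, 28 passed the filter, 4 were called higher in *kyp* and 7 lower, which is 39.3% of those tested, beside 14.8% higher, 10.2% lower and 24.9% in all over the whole table. The median log2 fold change of the list was -0.23. By step, 5 of 9 tested identifiers listed as receptors were lower and the other 4 were not called. Of 7 listed as PP2C phosphatases, 3 were higher and 1 was lower. Of 6 listed for synthesis, besides *NCED1*, 1 was higher and 1 lower. The 3 tested for breakdown, 1 SnRK2 kinase and 2 bZIP factors were not called.

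Among the called identifiers of the list, Solyc06g050500.2 had the largest log2 fold change in size. It had 1.27, 2.74 and 1.58 CPM in *kyp* and 12.8, 25.8 and 15.3 CPM in WT, with a log2 fold change of -3.25 and an edgeR adjusted p of 0.000378. Solyc10g076410.1 had 1.69, 1.76 and 1.68 CPM in *kyp* and 8.75, 14.1 and 8.37 CPM in WT, a log2 fold change of -2.60 with an edgeR adjusted p of 0.000299. In both genes the lowest WT library lay far above the highest *kyp* library. Solyc10g085310.1 averaged 6.67 ± 0.300 CPM in *kyp* and 20.3 ± 6.24 CPM in WT (SD, n = 3 each), with an edgeR adjusted p of 0.00123. Solyc01g095700.3 had 69.6, 71.5 and 85.0 CPM in *kyp*, against 148, 130 and 129 CPM in WT, with an edgeR adjusted p of 0.000731. Log2 fold changes of the other called identifiers that were lower were -1.92 for Solyc03g095780.3, -1.17 for Solyc08g016720.1 and -0.51 for Solyc08g062650.2. Solyc03g095780.3 had few counts, at 11, 7 and 6 in *kyp* and 16, 51 and 39 in WT, with an edgeR adjusted p of 0.0191. Its lowest WT library, at 1.75 CPM, lay near its highest *kyp* library, at 1.55 CPM.

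On the higher side, Solyc02g090890.4 had 188, 316 and 194 CPM in *kyp* and 102, 85.9 and 129 CPM in WT, a 2.21-fold difference with an edgeR adjusted p of 0.00648. Solyc06g076400.3 had 55.2, 42.3 and 57.6 CPM in *kyp* and 19.4, 22.2 and 29.4 CPM in WT, 2.19-fold higher with an edgeR adjusted p of 0.00215. Solyc05g052980.4 and Solyc12g096020.3 were 1.72-fold and 1.44-fold higher.

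**Figure D5:**
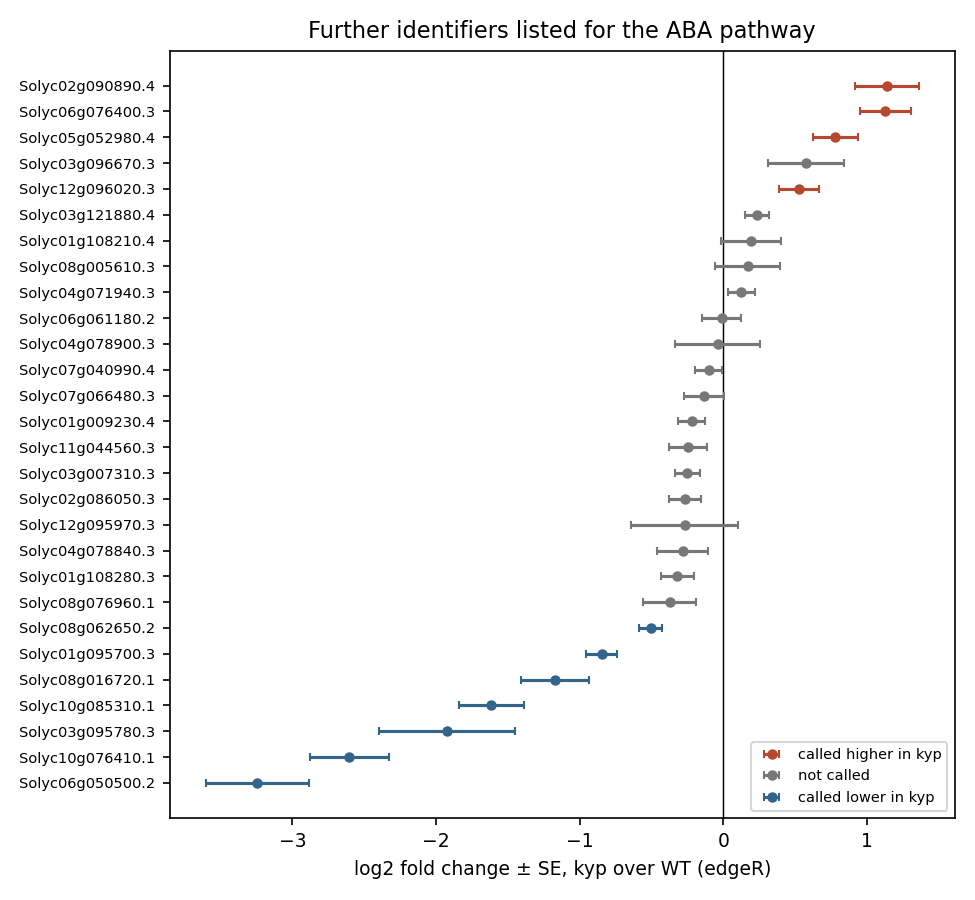
Log2 fold change of *kyp* over WT with its standard error (horizontal axis, edgeR) for the 28 tested identifiers of the ABA list, ordered by value. Colour gives the call, with 4 higher and 7 lower in *kyp*, and the lowest value is -3.25 for Solyc06g050500.2.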

How the data were processed

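The authors deposited raw counts, in which each value is the number of reads assigned to 1 gene in 1 library. The paper's methods describe adapter removal with Trimmomatic, mapping to the M82 genome with Bowtie2 and removal of duplicates and of alignments of low mapping quality, whereas the submitters' processing notes list Trimmomatic 0.38, HISAT2 2.2.1, SAMtools 1.9, featureCounts, R 3.5.1 and DESeq2. The aligner behind the counts is therefore not settled, and the strand setting and annotation release are not given in the sources used here. Reads shared by close copies such as the ASR genes may have been lost or split, and counts of overlapping genes on opposite strands are uncertain. If an aligner that does not splice was used, reads across introns were lost.

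The test was edgeR 4.0.16 (glmQLFit, glmQLFTest) in R 4.3.3, with TMM, filterByExpr (minimum count 10, minimum total 15), genotype as the only factor, all 6 libraries, Benjamini-Hochberg adjustment over all tested genes and a threshold of 0.05. Standard errors were taken as the log2 fold change over the root of its F value. Log2 CPM for correlations used a prior count of 2. The test was checked on simulated data. The members and lists were chosen with earlier results of these data known. Text names every member, called genes of the ABA list and of the 10 places either side of the ASR cluster, and the 3 genes most like *NCED1*, *TAS14* and *ASR1*. Solyc04g071600.3 and Solyc04g071630.3 were added after their values were seen. Of the 8 member names, 7 occur in the RefSeq table, each on the chromosome of its identifier. Library pairs within a genotype differed beyond sampling noise, with chi-square values per degree of freedom from 4.77 to 12.3, so none was taken as a repeat of another library. This does not show that the plants were separate, and that the replicates are biological rests on the sources alone. Alternatives were DESeq2 1.42.0, limma-voom (limma 3.58.1), other normalizations and filters, organelle genes left out, a replicate block and leaving out each replicate. Figures used matplotlib 3.10.9.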

Additional observations from a re-analysis of the deposited data

Results flagged for a closer look

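*LE25* and *ASR3* did not enter the test because of their low counts, yet each had a *kyp* library above the floor and above every WT library. The highest *kyp* count of *LE25* was 14, in replicate 2, beside 0 in each WT library. For *ASR3* it was 7, also in replicate 2, beside at most 2 in WT. Neither passed an adjusted p of 0.05 when tested without the filter (edgeR, 0.0895 for *LE25* and 0.170 for *ASR3*).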

How the results depend on the processing

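*NCED1* and *ASR1* stayed higher in *kyp* and past the threshold in the 8 alternatives that kept all libraries, with log2 fold changes from 0.81 to 0.87 and from 0.65 to 0.73. *TAS14* stayed above 0 and was called in none of the 8, with adjusted p from 0.156 to 0.346. *ASR2*, not called in any fit, changed sign with library totals alone (-0.043). Leaving out each replicate gave log2 fold changes from 0.70 to 1.02 for *NCED1*, 0.55 to 0.88 for *ASR1*, 0.29 to 0.61 for *TAS14* and -0.082 to 0.12 for *ASR2*, with 1 to 2 members called. *ASR1* was called in 4 of these 6 fits.

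Over all genes these fits called 3538 to 5431 genes, 2265 to 3228 higher and 1212 to 2203 lower, against 5028, 2982 and 2046 with all libraries. Library totals alone gave 2674 higher and 2637 lower, so that 50.35% were higher, against 59.31% with TMM. Counts for the ABA list and the ASR neighbours under the alternatives were added after the data were seen. With a replicate left out, the list had from 3 to 4 identifiers called higher and from 6 to 8 called lower. Neighbours called lower were 2 with DESeq2, 2 with library totals alone and 3 without the filter. Leaving out a replicate gave 0 to 3 higher and 0 to 1 lower neighbours by edgeR.

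The replicate number as a replicate block called 4867 genes, with log2 fold changes of 0.86 for *NCED1*, 0.72 for *ASR1*, 0.50 for *TAS14* and 0.00 for *ASR2*, and changed no call among the members. Deviations of same-numbered libraries correlated at 0.19, 0.07 and -0.06, so the numbers were not taken as pairs. *TAS14* was tested on few counts, at 21 to 42 per library. *LE25*, *ASR3* and the *RD29*-like gene were below the filter, where *LE25* and *ASR3* could be tested only without it. Whether greater depth would change this was not tested.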
